A study of Mus musculus with 6 samples.

Results

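Replication-dependent histone genes were followed in germinal center (GC) and naive B cells from the Peyer's patches of mice, the lymphoid tissue of the gut wall. The members were the genes whose older mouse symbol starts with Hist1h, Hist2h, Hist3h or Hist4h. This rule found 64 of the 39179 genes with a value, namely 6 genes of class H1, 18 of H2A, 16 of H2B, 12 of H3 and 12 of H4. A further 6 genes that carry such a symbol in the annotation (Hist1h2ao, Hist1h2ap, Hist1h2bl, Hist1h2bm, Hist1h2bn and Hist4h4) were not analysed here. The rule uses symbols alone, but the gene set was proposed with earlier results of these data known.

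RNA-Seq libraries came from wild-type female C57BL/6 mice aged 12 weeks, and no treatment is given in the labels. GC B cells were sorted as Fas+ GL7+ cells and naive, or resting, B cells as Fas- GL7- cells, from Peyer's patches of the ileum. There were 3 replicates of each population, and each was a pool of littermates. The authors deposited FPKM, fragments per kilobase of transcript scaled to the number of mapped fragments, which were rescaled here to TPM, the same unit with an equal total in every pool, so that levels of different genes are set side by side per length.

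Histones are the proteins around which DNA is wound. The core of the nucleosome is built from H2A, H2B, H3 and H4, and H1 binds the linker DNA between nucleosomes. Replication-dependent histone genes lie in clusters, lack introns in their typical form and are transcribed mostly during S phase, when new DNA has to be packaged. Their mRNAs typically carry no poly(A) tail. They end instead just after a short stem-loop, which is bound by SLBP, the stem-loop binding protein, and cut with the help of the U7 snRNP. Some of these genes can also give longer, polyadenylated mRNAs, above all in cells that do not divide. GC B cells are known for rapid division, whereas naive B cells are largely quiescent. Whether the libraries were made from poly(A) RNA is not given in the sources used here, so the levels below are those of the histone transcripts that the library method captured.

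Because the stem-loop defines this gene family, its sequence was read from the mouse genome (build NCBIM37, annotation GENCODE M1) downstream of the annotated stop codons. A stretch of 16 letters (GG, any 2 bases, CTT, any base, T, any base, A, any 2 bases and GCC) was searched on the coding strand within 150 bases of the stop codon. It was found in 55 of the 61 members with an annotated stop codon (90.2%) and in 14 of 21903 other genes (0.0639%). There were 7 distinct forms, of which 1 was shared by 35 members and another, with a C and G pair in its stem in place of a T and A pair, by 7 members that were all H4 genes. The examples below are those of the genes on which the results turn, and the capitals mark the stem-loop letters within their neighbouring bases.
Hist1h4i: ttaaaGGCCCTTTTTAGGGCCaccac
Hist1h2bk: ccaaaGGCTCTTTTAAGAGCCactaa
Hist1h1b: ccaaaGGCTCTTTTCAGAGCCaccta
Hist1h1c: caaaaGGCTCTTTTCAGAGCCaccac
Hist2h2aa1: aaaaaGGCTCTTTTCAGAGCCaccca
Hist3h2a: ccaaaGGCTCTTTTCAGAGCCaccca

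The stem-loop letters lie at chr13:22132835-22132850 (minus strand) for Hist1h4i, at chr13:22128169-22128184 (plus) for Hist1h2bk, at chr13:21871706-21871721 (minus) for Hist1h1b and at chr13:23831381-23831396 (plus) for Hist1h1c. Those of Hist2h2aa1 lie at chr3:96049955-96049970 (plus) and those of Hist3h2a at chr11:58768674-58768689 (plus). All of these genes have a single annotated exon. The letters were 24 bases after the stop codon in Hist1h1c and 58 in Hist2h2aa1. In NCBIM37, 51 members lie on chromosome 13 (Hist1), 10 on chromosome 3 between 96023839 and 96082924 (Hist2) and 3 on chromosome 11 between 58762413 and 58770176 (Hist3).

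Promoter sequences, from 250 bases before to 50 bases after each gene's start, were taken from RefSeq (build GRCm38.p6) for 56 members with 57 promoters. The letters CCAAT, on either strand, were in 49 of the 57 (86.0%) and in 37.4% of all 32851 promoters of the same length. TATAAA, on either strand and allowed to overlap the other letters, was in 34 (59.6%) and in 13.6% of all promoters. A pair of promoters is shown, of the member with the highest GC level and of the pair of near-identical genes that lead in naive cells, with both letter strings (or their reverse complements ATTGG and TTTATA) in capitals. That of Hist1h4i is at chr13:22041313-22041612 (minus strand) and that of Hist2h2aa1 at chr3:96245247-96245546 (plus).
Hist1h4i: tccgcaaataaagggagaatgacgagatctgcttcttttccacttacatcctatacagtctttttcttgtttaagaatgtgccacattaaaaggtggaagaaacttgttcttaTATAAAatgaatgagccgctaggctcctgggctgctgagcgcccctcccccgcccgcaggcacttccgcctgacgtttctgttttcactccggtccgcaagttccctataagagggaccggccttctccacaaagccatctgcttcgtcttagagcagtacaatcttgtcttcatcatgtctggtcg
Hist2h2aa1: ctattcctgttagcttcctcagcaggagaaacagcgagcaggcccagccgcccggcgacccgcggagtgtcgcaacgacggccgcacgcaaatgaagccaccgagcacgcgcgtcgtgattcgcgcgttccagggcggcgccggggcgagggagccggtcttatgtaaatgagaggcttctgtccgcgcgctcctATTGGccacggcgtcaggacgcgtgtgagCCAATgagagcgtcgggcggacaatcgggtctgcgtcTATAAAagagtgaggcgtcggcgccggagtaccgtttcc
The Hist2h2aa1 window holds CCAAT on each strand and TATAAA, and the Hist1h4i window holds TATAAA alone.

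The sort was checked against marker lists. Fas, the receptor used in the gate, was at 108.0 to 119 TPM in GC pools and at 3.03 to 3.59 TPM in naive pools, and all 6 markers of GC B cells were higher and all 6 of naive B cells lower in GC pools. Summed plasma cell markers were at 131 to 135 TPM in GC and 192 to 212 TPM in naive pools. Most of that sum was Xbp1 (means of 104 and 120 TPM). Prdm1 alone went the other way, with a mean of 5.01 TPM in GC against 0.955 TPM in naive pools. Summed markers of T cells were low (1.72 to 4.71 TPM over all pools). Those of myeloid cells were low too, at 2.29 to 2.70 TPM in GC and 4.89 to 7.87 TPM in naive pools. Those of epithelial cells were at 22.2 to 38.0 TPM in GC and 47.7 to 76.1 TPM in naive pools. Of the epithelial markers, Krt18 alone had a higher mean in GC, at 3.23 against 1.83 TPM. None of these markers was listed at 0 in all pools. Depth, estimated from the steps between low values, was about 9800000 to 16200000 reads per pool. At that depth, 1 read on a 500-base transcript is worth 0.263 to 0.434 TPM. The estimate is rough, as 57.3 to 66.1% of the low values used lay near a whole number of reads. Multiples of these depths can fit as well. Pools of the same population correlated at r = 0.963 to 0.972 across genes. Most members were weakly expressed, with a mean under 10 TPM in both populations for 54 of them, so many single values rest on few reads.

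Histone transcripts were more abundant in GC B cells. Their summed level was 315.9, 367.9 and 346.0 TPM in the 3 GC pools and 165.7, 187.6 and 212.6 TPM in the 3 naive pools. The sum was 343 ± 26.1 TPM (SD, n = 3) against 189 ± 23.5 TPM, a ratio of 1.82, and the pools did not overlap. Naive B cells were not devoid of histone transcripts, and a bulk sum cannot tell a smaller share of cells in S phase from less histone RNA per cell. No test was made on sums, because the gene set was chosen with earlier results known.

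The increase was unequal among classes. The H4 sum was 101, 110 and 103 TPM in GC pools against 28.4, 41.0 and 45.9 TPM in naive pools (ratio 2.72). H3 transcripts summed to 45.5, 59.9 and 60.0 TPM against 9.32, 17.2 and 15.1 TPM (ratio 3.98). H2B transcripts summed to 67.6, 81.4 and 84.7 TPM against 32.1, 35.4 and 41.0 TPM (ratio 2.15), and the pools of H3, H4 and H2B were apart. The H1 sums, 24.5, 31.0 and 26.3 TPM against 12.3, 16.9 and 15.5 TPM, gave a ratio of 1.83 and did not overlap either. H2A was the exception, with 77.4, 85.3 and 72.2 TPM in GC and 83.5, 77.2 and 95.0 TPM in naive pools. The H2A pools overlapped, with a mean of 78.3 ± 6.57 TPM against 85.2 ± 9.02 TPM (SD, n = 3). Accordingly H2A made up 20.9 to 24.5% of all histone transcripts in GC pools and 41.1 to 50.4% in naive pools. The share of H4 was 29.7 to 31.9% in GC and 17.2 to 21.8% in naive pools, and that of H3 14.4 to 17.4% and 5.62 to 9.15%.

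**Figure D1:**
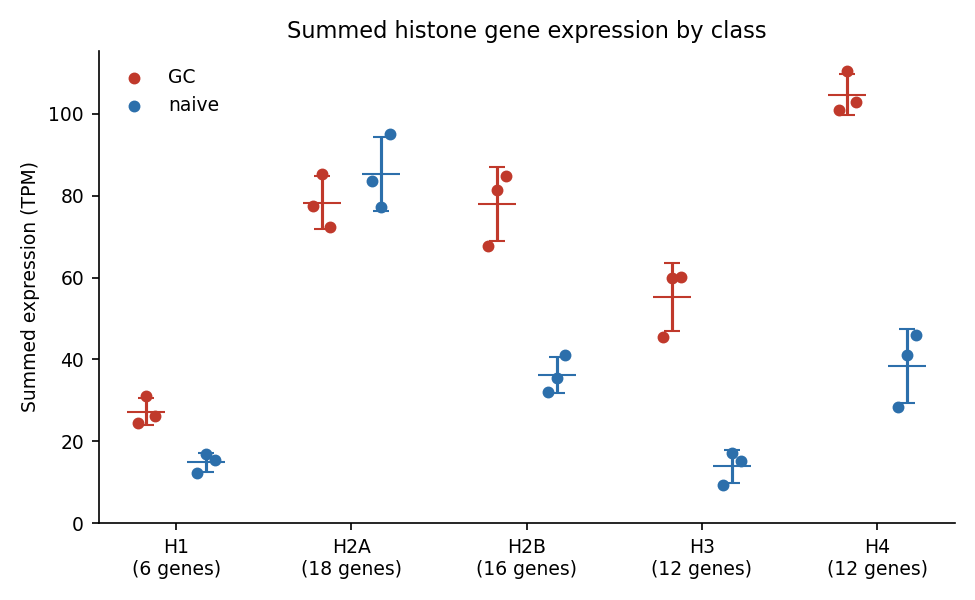
Summed expression (TPM, linear axis from 0) of the 5 histone classes, with a point for each of the 3 GC and 3 naive pools and the mean with its SD. The GC points lie above the naive points for H1, H2B, H3 and H4, whereas the H2A points of both populations overlap between 72.2 and 95.0 TPM.

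Single members were compared with limma on log2(TPM + 1), a scale that understates the change of low genes, fitted over the 12785 genes that reached 1 TPM in at least 3 pools, with Benjamini-Hochberg adjustment over all of them and a threshold of 0.05. Of the 64 members, 43 were tested, 23 were called higher in GC B cells, 6 lower, and 14 were not called. Among all genes tested, 35.5% were called higher and 30.1% lower (65.6% in either direction), so GC and naive B cells differed widely. In genes tested with a mean under 10 TPM, where most members lie, these shares were 28.4% and 28.9%. Of the 43, 9 reached 1 TPM in GC pools alone and had to differ, and all 9 are among the 23 called higher, while 1 that passed through naive pools alone (Hist2h3c1) is among the 6 called lower. Of the other 33 members tested, 14 were called higher and 5 lower. The remaining 21 members were too low to be tested, and 3 of them (Hist1h1t, Hist1h2aa and Hist1h2ba, known as testis forms) were listed at 0 in every pool. Without the filter, 24 members were called higher and 4 lower, beside 22.7% and 18.7% of 20845 genes.

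The direction also showed in the raw order of the pools. All 3 GC pools were above all 3 naive pools in 30 of the 61 members with a value above 0, and below them in 6, where 27.0% and 23.3% of all such genes were apart in these directions. The mean was higher in GC for 48 members and lower for 13, and the median difference over the members was 0.67 against 0.03 over all genes tested (GC minus naive, log2(TPM + 1)). The Hist1 cluster held 21 of the 23 calls higher in GC and no call lower among its 32 tested members (12 of the 23 that did not pass the filter through GC pools alone), and its median difference was 0.96. Of 9 tested Hist2 members, 2 were called higher and 5 lower, with a median difference of -0.57 over all 10. For these calls, the shares over all genes tested were 35.5% higher and 30.1% lower. The 3 Hist3 members all had lower means in GC, and 1 was called. Summed over the cluster, Hist1 was at 278 ± 20 against 81.4 ± 17.9 TPM, Hist2 at 53.6 ± 6.08 against 84.7 ± 9.07 TPM and Hist3 at 11.9 ± 1.43 against 22.4 ± 2.74 TPM (SD, n = 3). Whether the clusters differed from each other was not tested.

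**Figure D2:**
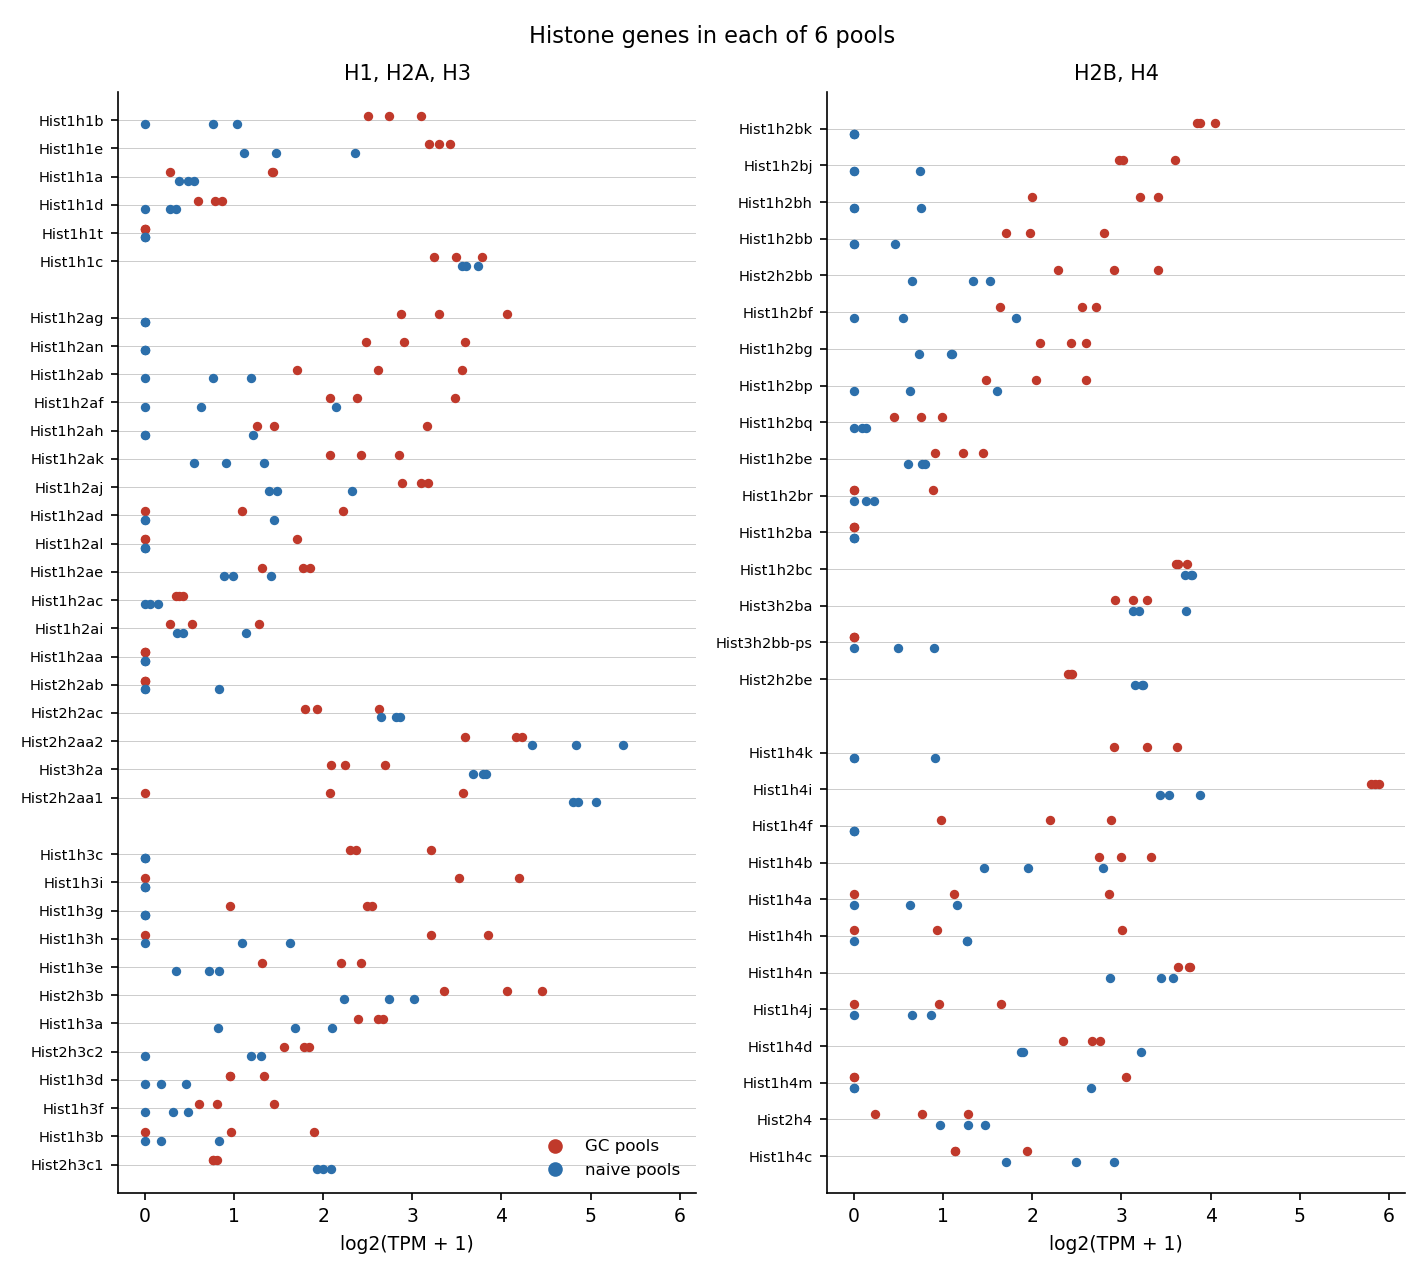
Expression of histone genes in each of the 6 pools, on a log2(TPM + 1) axis, by class, with GC and naive pools in different colors. Most Hist1 genes have their GC points to the right of their naive points, and Hist2h2aa1, Hist2h2aa2, Hist2h2ac, Hist2h2be, Hist2h3c1 and Hist3h2a show the opposite order.

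Among H1 genes, Hist1h1b and Hist1h1e rose and Hist1h1c was not called. Hist1h1b (ENSMUSG00000058773), which encodes H1.5, was at 4.67, 7.56 and 5.69 TPM in GC pools and at 0, 1.05 and 0.697 TPM in naive pools. Hist1h1e (ENSMUSG00000051627), which encodes H1.4, was at 8.83, 8.14 and 9.69 against 1.16, 4.11 and 1.78 TPM. Both were apart between the populations, and limma gave a log2 difference of 2.18 (SE 0.30, Benjamini-Hochberg adjusted p = 0.000839) for Hist1h1b and 1.66 (SE 0.31, adjusted p = 0.00345) for Hist1h1e. Hist1h1c (ENSMUSG00000036181), which encodes H1.2 and is known to be made outside S phase too, was at 10.3, 12.8 and 8.45 TPM in GC and at 10.7, 11.2 and 12.3 TPM in naive pools. Its pools overlapped and its log2 difference was -0.13 (SE 0.15, limma with Benjamini-Hochberg adjusted p = 0.497), turning to 0.00799 without GC replicate 3. Hist1h1c thus supplied 76.6% of H1 transcripts in naive and 38.5% in GC pools. Without it the H1 ratio was 4.80 instead of 1.83. Hist1h1a, at 0.220, 1.69 and 1.71 against 0.405, 0.301 and 0.465 TPM, and Hist1h1d, at 0.510, 0.817 and 0.725 against 0, 0.219 and 0.271 TPM, were too low to be tested, and Hist1h1t, a testis H1, was listed at 0.

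The overlapping H2A sums were made of parts that ran in opposite directions. The 13 H2A genes of Hist1 together were at 49.4, 53.7 and 49.2 TPM in GC and at 4.51, 11.7 and 8.61 TPM in naive pools, a ratio of 6.14. The 4 H2A genes of Hist2 were at 24.7, 26.1 and 19.3 TPM in GC and at 66.1, 53.7 and 73.2 TPM in naive pools, 2.75 times lower in GC. H2A thus came mainly from Hist1 in GC and from Hist2 in naive B cells.

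Within Hist1, Hist1h2ag (ENSMUSG00000069301) was at 8.85, 15.7 and 6.33 TPM in GC pools and listed at 0 in all naive pools. Hist1h2an, at 6.48, 4.58 and 11.0 TPM, was also listed at 0 in all naive pools. Both encode canonical H2A, and both passed the filter through GC pools alone, so their log2 differences of 3.41 and 2.99 are given as a description. Since only 18.5% and 14.2% of their 50-base windows are found in no other annotated coding transcript, the division of reads among these genes is uncertain. Hist1h2ab (5.13, 2.26 and 10.8 against 0, 0.698 and 1.29 TPM, log2 difference 1.97, limma with Benjamini-Hochberg adjusted p = 0.0147) and Hist1h2aj (8.05, 6.38 and 7.57 against 1.63, 1.79 and 3.99 TPM, 1.32, adjusted p = 0.00434) rose as well. In GENCODE M1 Hist1h2aj is annotated as a pseudogene, and its share of own windows was not computed. Hist1h2af, at 10.1, 3.23 and 4.22 against 0.554, 3.44 and 0 TPM, overlapped between populations. It was called at an adjusted p of 0.0464 (limma, Benjamini-Hochberg), which moved to between 0.0514 and 0.132 on leaving out any single pool other than naive replicate 2. Hist1h2ak was called higher too, and Hist1h2ad, Hist1h2ae and Hist1h2ah were tested and not called, of which Hist1h2ae passed without GC replicate 2 or naive replicate 3 and Hist1h2ah without GC replicate 1 or naive replicate 2 (limma with Benjamini-Hochberg adjusted p = 0.0276 to 0.0456).

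Outside Hist1, 4 H2A genes had lower levels in GC B cells and were called. The highest were Hist2h2aa1 (ENSMUSG00000063954) and Hist2h2aa2 (ENSMUSG00000064220), neighbouring genes on opposite strands whose transcripts share every 50-base window, so the reads of one cannot be told from those of the other. Hist2h2aa1 was listed at 10.8, 3.21 and 0 TPM in GC and at 32.5, 28.0 and 26.9 TPM in naive pools, and Hist2h2aa2 at 11.1, 17.7 and 16.9 against 27.6, 19.3 and 40.2 TPM. Their sum, which does not depend on that division, was 21.9, 20.9 and 16.9 TPM in GC and 60.0, 47.4 and 67.1 TPM in naive pools. The pair was thus 2.92 times lower in GC, and fitted as one gene, an alternative chosen after seeing the data, it fell by 1.5 on the log2 scale (SE 0.15, limma with Benjamini-Hochberg adjusted p = 0.000206). Fitted apart, both were called lower (log2 differences -3.03 and -0.86, limma with Benjamini-Hochberg adjusted p = 0.017 and 0.0376), and Hist2h2aa2 missed the threshold without GC replicate 1 or 3 or naive replicate 1 or 3 (0.0603 to 0.106). Hist2h2aa1 missed it with a pseudocount of 0.1 or 0.01 in place of 1 (0.0593 and 0.108). Without the pair, the H2A sum was 2.16 times higher in GC.

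Hist3h2a (ENSMUSG00000078851), the H2A gene of the chromosome 11 cluster, was at 3.27, 5.45 and 3.75 TPM in GC and at 12.9, 11.8 and 13.1 TPM in naive pools. It fell by 1.42 on the log2 scale (SE 0.17, limma with Benjamini-Hochberg adjusted p = 0.000398), and its pools were far apart. Hist2h2ac, at 2.82, 5.19 and 2.47 against 6.06, 6.28 and 5.29 TPM, was called lower by a small margin (-0.66, limma with Benjamini-Hochberg adjusted p = 0.0427) and missed the threshold when any pool but GC replicate 2 was left out (0.0707 to 0.119). Hist2h2ab reached 0.788 TPM in 1 naive pool and was listed at 0 in the other 5. The summed epithelial and myeloid markers were higher in naive pools as well, and the part that cells of other types had in these H2A values was not tested.

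**Figure D3:**
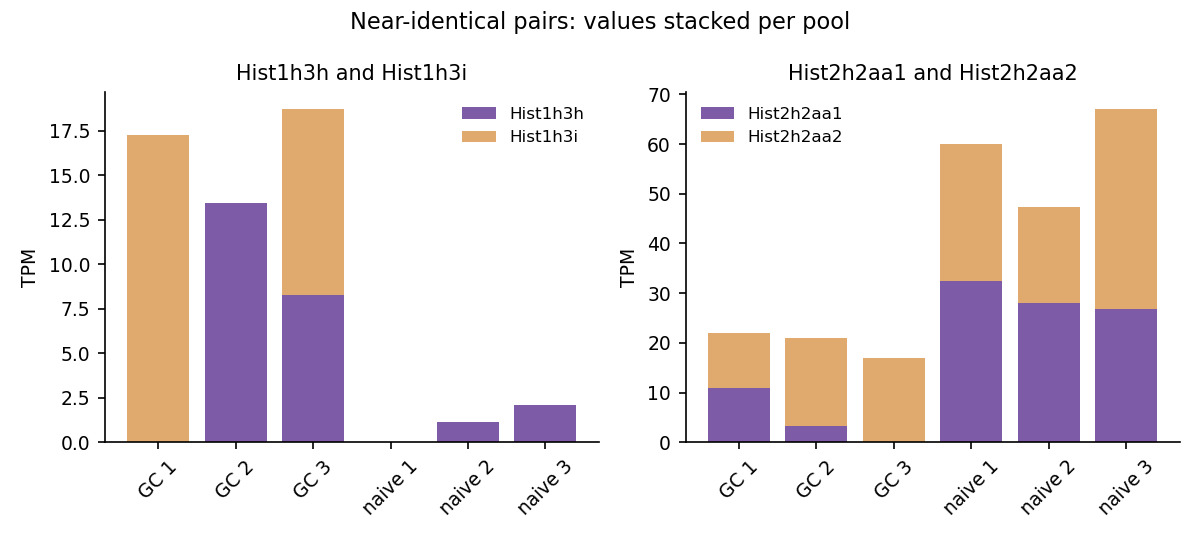
Stacked expression (TPM, linear axis from 0) of near-identical gene pairs in each of the 6 pools, with a color for each gene of a pair. The share listed for each gene changes between pools of the same population, while the totals of Hist2h2aa1 and Hist2h2aa2 stay at 16.9 to 21.9 TPM in GC and 47.4 to 67.1 TPM in naive pools.

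Of 11 tested H2B genes, 8 were called higher (4 of them after passing the filter through GC pools alone), 1 lower and 2 were not called. The shares over all genes tested were 35.5% higher and 30.1% lower. Hist1h2bk (ENSMUSG00000062727) was at 13.8, 13.4 and 15.6 TPM in GC and was listed at 0 in all naive pools, a log2 difference of 3.93 that, as the gene passed the filter through GC pools alone, is a description. A share of 26.3% of its 50-base windows is its own. Hist1h2bj (6.83, 11.1 and 7.14 against 0, 0.671 and 0 TPM) and Hist1h2bh (2.99, 9.66 and 8.24 against 0, 0.684 and 0 TPM) followed, with log2 differences of 2.95 and 2.62, and passed the filter in the same way. In naive pools these genes thus rested on a few reads or none. The remaining Hist1 genes called were Hist1h2bb (again passing through GC pools alone), Hist1h2bf, Hist1h2bg and Hist1h2bp, with log2 differences of 1.30 to 2.01. Of these, Hist1h2bf and Hist1h2bp missed the threshold without GC replicate 2 or 3 or naive replicate 1 or 2 (limma with Benjamini-Hochberg adjusted p = 0.0963 to 0.131).

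Hist2h2bb was 1 of the 2 Hist2 genes higher in GC, at 6.59, 3.90 and 9.64 against 0.567, 1.89 and 1.52 TPM (log2 difference 1.71, limma with Benjamini-Hochberg adjusted p = 0.00503). Its windows were all its own among the coding transcripts of the annotation used here. The authors quantified reads on another transcriptome, so whether read sharing entered its value was not tested.

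None of the 3 H2B genes with the highest naive levels was called higher. Hist1h2bc (ENSMUSG00000018102) was at 11.3, 12.3 and 11.5 TPM in GC and at 12.1, 12.9 and 12.8 TPM in naive pools, a log2 difference of -0.10 (SE 0.08, limma with Benjamini-Hochberg adjusted p = 0.311), and made up 34.8% of naive and 15% of GC H2B transcripts. Hist3h2ba was at 8.78, 7.77 and 6.62 against 8.18, 7.73 and 12.2 TPM (-0.23, adjusted p = 0.316). Hist2h2be (ENSMUSG00000068854) was at 4.27, 4.46 and 4.40 TPM in GC and at 8.41, 8.47 and 7.90 TPM in naive pools, tightly grouped and apart, and fell by 0.78 on the log2 scale (SE 0.09, limma with Benjamini-Hochberg adjusted p = 0.000348). The pseudogene Hist3h2bb-ps was listed at 0 in GC and reached 0.864 and 0.411 TPM in 2 naive pools.

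H3 transcripts of Hist1 summed to 33.1, 35.6 and 41.7 TPM in GC and to 2.34, 5.97 and 5.0 TPM in naive pools, a ratio of 8.31. Hist1h3h and Hist1h3i, both H3 genes that share most of their sequence (22.3% and 27.0% of windows their own), took turns in the GC pools. Hist1h3h was listed at 0, 13.4 and 8.28 TPM and Hist1h3i at 17.3, 0 and 10.5 TPM, whereas in naive pools Hist1h3h was at 0, 1.12 and 2.10 TPM and Hist1h3i was listed at 0. Their sum was steadier, at 17.3, 13.4 and 18.7 TPM in GC against 0, 1.12 and 2.10 TPM in naive pools. Fitted as a pair, an alternative chosen after seeing the data, they were higher in GC (log2 difference 3.21, SE 0.41, limma with Benjamini-Hochberg adjusted p = 0.000555). In the main fit Hist1h3h alone was not called (limma with Benjamini-Hochberg adjusted p = 0.257) unless GC replicate 1 was left out (0.0072). Hist1h3i alone was not tested.

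Hist1h3c (ENSMUSG00000069310), at 3.91, 8.26 and 4.15 TPM in GC and listed at 0 in all naive pools, had a log2 difference of 2.62, again with passage through GC pools alone. Hist1h3a and Hist1h3e were called too, with log2 differences of 1.02 and 1.35. Hist1h3e also passed the filter through GC pools alone. Hist1h3a missed the threshold without any 1 GC pool or naive replicate 3 (limma with Benjamini-Hochberg adjusted p = 0.0515 to 0.0814). Hist1h3b, at 2.71, 0 and 0.962 against 0.783, 0.137 and 0 TPM, was among those too low to be tested. In Hist2, Hist2h3b was at 9.20, 21.0 and 15.7 TPM in GC and at 3.71, 7.10 and 5.69 TPM in naive pools, the highest H3 gene in both populations (log2 difference 1.29, limma with Benjamini-Hochberg adjusted p = 0.0121). Its neighbour Hist2h3c1 went the other way, at 0.758, 0.706 and 0.697 against 3.27, 2.81 and 2.98 TPM (log2 difference -1.22), and passed the filter through naive pools alone. In GENCODE M1 the transcript of Hist2h3c1, from 96049477 to 96052431 on chromosome 3, runs over Hist2h2aa1 on the same strand, so reads of these genes cannot be told apart over the shared stretch. Of the Hist2h3b windows, 20.3% are its own and it shares most with Hist2h3c1, so the values of both also depend on how RSEM divided their reads.

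H4 genes differ in their bases but encode the same protein, and a single gene led them in level. Hist1h4i (ENSMUSG00000060639) was at 56.4, 58.0 and 54.7 TPM in GC and at 9.77, 13.7 and 10.6 TPM in naive pools, a ratio of 4.96, and was the highest member in GC B cells. It rose by 2.23 on the log2 scale (SE 0.12, limma with Benjamini-Hochberg adjusted p = 1.18e-05) and gave 53.9% of H4 transcripts in GC and 29.6% in naive pools. Without it the H4 ratio was 1.78 instead of 2.72. Hist1h4k, at 6.57, 8.76 and 11.4 against 0.878, 0 and 0 TPM, passed the filter through GC pools alone, with a log2 difference of 2.98. The share of 50-base windows of its own was 59.8% for Hist1h4i and 28.5% for Hist1h4k. Both values thus also depend on how RSEM divided shared reads.

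The calls of the other H4 genes depended on single pools or were not made. Hist1h4b, at 9.11, 6.98 and 5.74 against 1.74, 2.87 and 5.96 TPM, overlapped between populations, and its call (limma with Benjamini-Hochberg adjusted p = 0.0498) was lost on leaving out any pool but naive replicate 3 (0.0634 to 0.138). Hist1h4n was at 11.5, 12.7 and 12.5 against 6.35, 9.92 and 10.9 TPM. Summed with its near-identical partner Hist1h4m, it overlapped between populations, and the log2 difference of the pair was 0.44 (SE 0.33, limma with Benjamini-Hochberg adjusted p = 0.284). Hist1h4n alone was not called (adjusted p = 0.0911) but passed without naive replicate 3 (0.0467).

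Hist1h4c had lower GC values, at 1.2, 1.2 and 2.84 against 4.62, 2.26 and 6.53 TPM, and was not called (log2 difference -0.96, limma with Benjamini-Hochberg adjusted p = 0.0569), although it passed without GC replicate 3 or naive replicate 2 (0.0312 and 0.0169). Hist1h4d (5.77, 5.38 and 4.10 against 2.73, 2.66 and 8.31 TPM, adjusted p = 0.567) and Hist2h4 (0.179, 1.44 and 0.697 against 0.959, 1.44 and 1.78 TPM, 0.194) were not called by limma with Benjamini-Hochberg adjustment. Hist1h4d passed in the higher direction without naive replicate 3 (0.0137), and Hist2h4 in the lower direction without GC replicate 2 (0.0446).

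The annotated 3′ ends of the members were then set beside their differences. In GENCODE M1, which is not the transcriptome the authors used, the exons of 29 members ended before the stem-loop or at most 50 bases past it, and those of 26 members went further. Of the 29, 21 were tested, of which 14 were called higher in GC (66.7%) and none lower, and the median difference of the 29 was 1.52 on the log2(TPM + 1) scale. Of the 26, 16 were tested, of which 5 were called higher and 5 lower (31.2% each, near the 35.5% and 30.1% of all genes tested), with a median of 0.40. Of the 14 and the 5 called higher, 6 and 2 passed the filter through GC pools alone. Whether these groups differed was not tested. These 5 lower genes all lie in Hist2 or Hist3, so position and annotated 3′ end cannot be told apart for them.

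Individual genes illustrate this range. The Hist1h2bk exon ends before the stem-loop, and that of Hist1h1b shows no base past it. Hist1h1c, with 839 annotated bases past the loop, Hist1h2bc, with 313 in a second exon that a splice joins, and Hist3h2a, with 1487, were at similar levels in both populations or lower in GC. Hist1h4i had 150 bases past the loop and rose. Hist1h1d had 3050 and was at low levels in both populations, with all GC pools above all naive pools. With a limit of 300 bases, 13 members went further (6 tested, 1 called higher, 2 lower, median 0.18). Another 42 did not (31 tested, 18 higher, 3 lower, median 1.29). Among all genes tested, 35.5% were called higher and 30.1% lower. All GC pools lay above all naive pools in 46.2% of the longer group and 51.3% of the other, counting members above 0. Over all genes above 0 this share was 27.0%. The longer group had a median GC level of 0.772 TPM against 4.43 TPM, where adding 1 TPM shrinks differences more. Whether these groups differed was not tested.

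**Figure D4:**
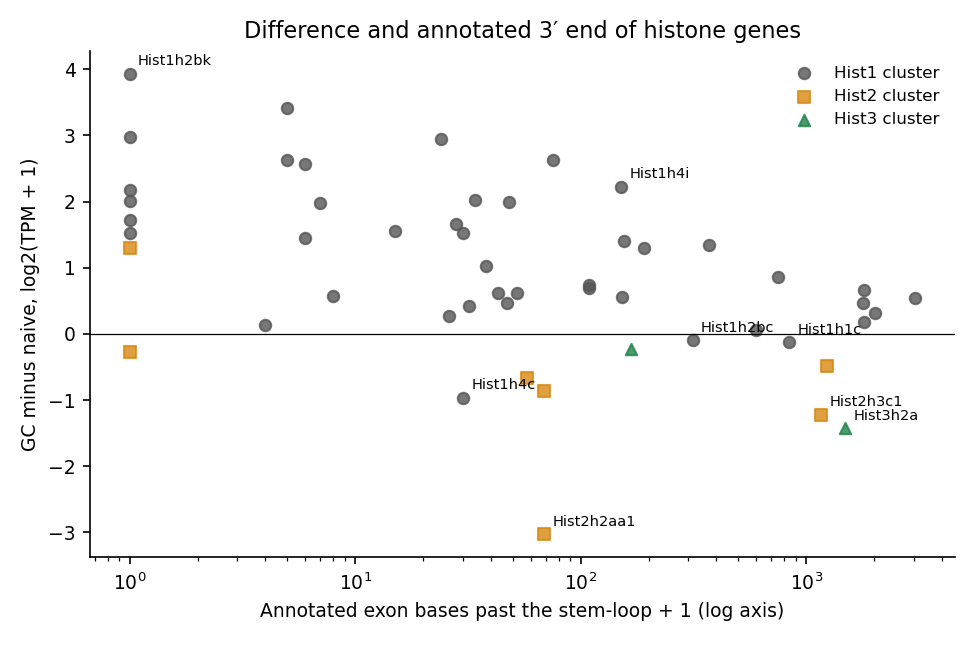
Difference between GC and naive B cells (GC minus naive, log2(TPM + 1)) against the annotated exon bases past the stem-loop plus 1 (log axis), with a point for each histone gene and a marker for each cluster. Among genes with at most 50 bases past the loop the median difference is 1.52, and among those with more it is 0.40.

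Many H2A and H2B genes are transcribed away from each other from a shared stretch of promoter. Among the members, 9 such pairs had annotated starts 173 to 306 bases apart (GENCODE M1, limit 500 bases). Over all genes with a value above 0, 27.0% had all GC pools above all naive pools and 23.3% had them below. Both genes had all GC pools above all naive pools in 2 pairs, Hist1h2bj with Hist1h2ag and Hist1h2bk with Hist1h2ah. In the latter, Hist1h2ah was at 1.39, 7.95 and 1.74 against 0, 1.33 and 0 TPM, far below Hist1h2bk in GC replicates 1 and 3. In 3 other pairs 1 gene alone was higher in this sense, namely Hist1h2bg beside Hist1h2ae, Hist1h2an beside Hist1h2bp, and the barely expressed Hist1h2ac beside Hist1h2bc. Both genes had all GC pools below all naive pools in the Hist2 pair of Hist2h2be and Hist2h2ac, and Hist3h2a alone did beside the pseudogene Hist3h2bb-ps. The pools of both genes overlapped in the last 2 pairs, of which the testis pair Hist1h2aa and Hist1h2ba was listed at 0. Whether the genes of a pair changed together more often than other genes was not tested.

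Genes that act on histone mRNAs were higher in GC B cells. Of 26 genes for transcription, 3′ processing and decay of histone mRNAs, and for the cyclins and kinase that control them, 21 were called higher, 3 lower and 2 were not called, with a median log2 difference of 0.76 (35.5% of all genes tested were called higher). Slbp, which binds the stem-loop, was at 296.6, 297.3 and 322.7 TPM in GC and at 79.2, 73.0 and 70.5 TPM in naive pools (log2 difference 2.03, limma with Benjamini-Hochberg adjusted p = 9.08e-07). Npat, the activator of histone gene transcription downstream of cyclin E and CDK2, was at 14.2, 17.5 and 15.2 against 5.71, 6.60 and 5.28 TPM (1.28, adjusted p = 0.00013). The widest differences of the list were those of the cyclins Ccna2 (6.06), Ccne2 (4.13) and Ccnf (3.69), the last of which is known to direct SLBP for degradation. The genes called lower were Cpsf3, the endonuclease of 3′ end cleavage (fell by 0.37), Mif4gd, an SLBP partner in translation (fell by 0.63), and Zcchc6, a uridylyl transferase (fell by 0.37).

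Histone chaperones, which carry new histones to DNA, were mostly higher as well. Of 23 tested, 19 were called higher and none lower, with a median log2 difference of 1.35. Over all genes tested, the share called higher was 35.5%, which is also the background for the S phase list below. The largest values were those of Asf1b (155.1 ± 13.2 against 5.95 ± 1.58 TPM, SD, n = 3, log2 difference 4.51), Chaf1a, the large subunit of CAF-1 (69.0 ± 1.85 against 2.33 ± 0.402 TPM, 4.40), and Mcm2, a replicative helicase subunit that binds H3 and H4 (203.4 ± 5.71 against 25.7 ± 1.61 TPM, 2.94). Ipo4, Cabin1, Daxx and Atrx, of which Daxx and Atrx deposit a replication-independent H3, were not called. All 19 genes of an S phase list were called higher (median log2 difference 3.0), led by the proliferation marker Mki67 (7.01), the ribonucleotide reductase subunit Rrm2 (5.71) and the replication licensing factor Cdc6 (4.81). Of 9 other RNAs known to lack a poly(A) tail, none could be matched to a value.

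Set beside these lists, the histone genes had a smaller median difference. The S phase median of 3.0 and the chaperone median of 1.35 compare with 0.67 for all 64 histone genes and 0.96 for the Hist1 members, while the processing list was at 0.76. These medians are descriptions, since levels differ: most histone genes were under 10 TPM, where adding 1 TPM shrinks the difference on the log2 scale. On sums, which are not shrunk, the Hist1 cluster was 3.41 times higher in GC B cells.

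**Figure D5:**
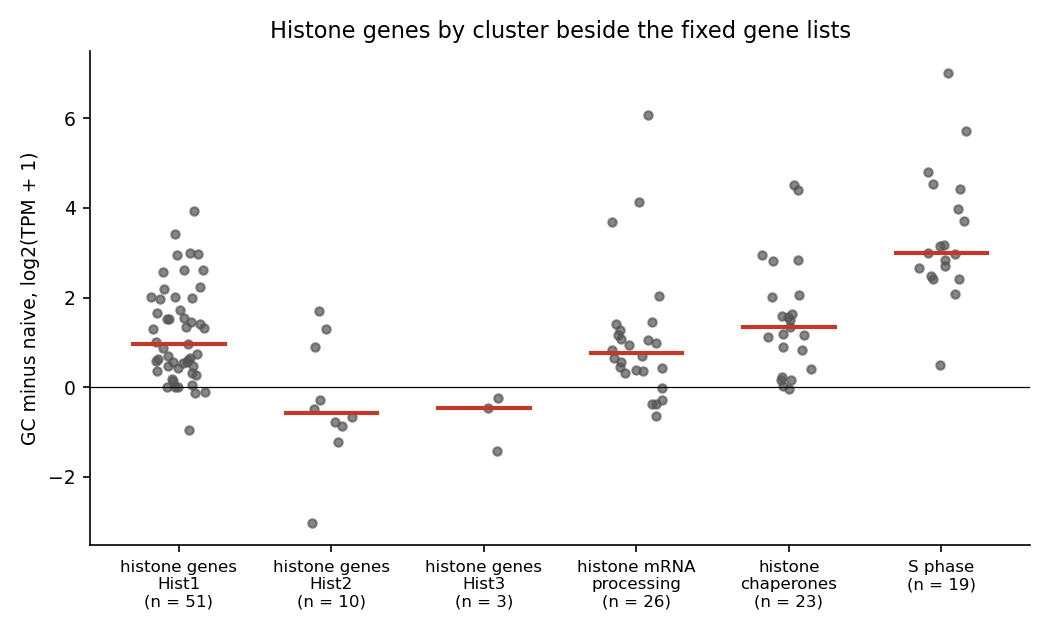
Difference between GC and naive B cells (GC minus naive, log2(TPM + 1)) of histone genes by cluster and of the genes of the processing, chaperone and S phase lists, with a point for each gene. All 19 S phase genes lie above 0, Hist1 genes lie mostly above it, and Hist2 and Hist3 genes lie largely below it.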

How the data were processed

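RNA-Seq was analysed from 3 pools of GC and 3 pools of naive B cells. The authors removed adapters with cutadapt 1.9, quantified reads with RSEM 1.2.25 on the mouse transcriptome NCBIm38 v75, and deposited FPKM per gene and pool with 2 decimals. Casava 1.8, FastQC and edgeR are also named in the submitters' processing notes. RSEM divides reads of near-identical genes by a model, so that single members are less certain than sums. TPM was FPKM over the pool total (717537 to 774597), scaled to the same sum in each pool.

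The members and lists were chosen with earlier results of these data known. Genes at 1 TPM or more in at least 3 pools were compared on log2(TPM + 1) with limma 3.58.1 (lmFit, eBayes with a mean-variance trend and no block, in R 4.3.3), with Benjamini-Hochberg adjustment over all genes tested. p-values measure the spread between pools. Class sums were described without a test. A B cell marker list is not reported here. Values per pool are given for all H1 genes, members with a mean of at least 5 TPM in a population, and the 2 largest and 2 smallest differences in each other class. Of the lists, the 3 largest differences, Slbp and Npat are named, and other members named were chosen after their values were seen. Symbols were found for 33398 of 39179 identifiers. Stem-loops, exons and 50-base windows came from NCBIM37 and GENCODE M1, promoters from RefSeq (GRCm38.p6).

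Alternatives were pseudocounts of 0.1 and 0.01, other filters on low values, FPKM as deposited, quantile normalization, a replicate block, correction for G+C content and length, and leaving out each pool. Summing near-identical pairs was an alternative added after the data were seen. Python 3.11.15, numpy 2.4.6, pandas 2.3.3 and matplotlib 3.10.9 were used.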

Additional observations from a re-analysis of the deposited data

How the results depend on the processing

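The number of members called higher in GC B cells was 18 to 26 over the alternatives and that called lower was 4 to 7, against 23 and 6. On leaving out 1 pool at a time these ranges were 18 to 25 and 4 to 7. Of 480 alternatives computed for the 36 named members, 427 were counted as unchanged, 40 lost the call, 12 gained one and 1 turned the sign (Hist1h1c, 0.00799 without GC replicate 3, within a range of -0.27 to 0.00799 on leaving out single pools). For members not tested in the main fit, unchanged means a log2 difference that moved by no more than its SD, whatever the call. Among these, Hist1h1d was called higher without the filter (limma with Benjamini-Hochberg adjusted p = 0.0168). Hist1h2af, Hist1h4b, Hist1h2bf and Hist1h2bp were lost most often. With the replicate number as a block, 23 members were called higher and 7 lower: Hist1h2af and Hist1h4b lost the call, and Hist1h2ae, Hist1h2ah and Hist1h4c gained one. Deviations of pools with the same number correlated at r = 0.08, 0.02 and 0.05, and those of pools with different numbers at -0.075 to 0.030. The labels do not say that same-numbered pools are pairs, so the main fit used no block. These weak values cannot decide whether the pools were paired. The log2 ratio of the class sums (GC over naive) depended on the choice of summary. Without the member with the highest mean it was 2.26 for H1, 0.17 for H2A, 1.49 for H2B, 2.25 for H3 and 0.83 for H4, against 0.87, -0.12, 1.11, 1.99 and 1.45, so that H3 then no longer exceeded H1. As a ratio of the median GC and median naive level of the members it was 2.88 for H1, 2.62 for H2A, 2.97 for H2B, 2.92 for H3 and 1.0 for H4. The H2A member left out above was Hist2h2aa2, whose reads cannot be told from those of Hist2h2aa1. Without the pair, the H2A sum was 2.16 times higher in GC. A G+C content and length was at hand for 86.3% of genes tested. By the rough estimate of depth, values under about 0.434 TPM correspond to 1 read or less on a 500-base transcript. Reads of near-identical genes limit single members more than sums.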
